A study of Mus musculus with 14 samples.

Results

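Mx1, Mx2, Ifit1, Ifit2, Ifit3 and Rsad2 are 6 interferon-stimulated genes whose products act against viruses inside the cell. They were chosen by name, as the Mx, Ifit and viperin genes on the array. Each had 1 probe, so they were 6 of 10012 probes, and all 6 passed the filter on dim probes that left 9584 for testing, Ifit2 only through the arrays of stimulated cells. Other Ifit genes of the mouse were not analysed here. The study asked how agonists of LXR and PPARγ, nuclear receptors for oxysterols and for fatty acids, alter the response of macrophages to Toll-like receptor ligands. RNA was measured on 14 one-colour arrays, 2 in each of 7 groups. All cells were peritoneal macrophages elicited with thioglycollate from 6-week-old female C57BL/6 mice. The groups were untreated cells, cells given lipopolysaccharide (LPS, a ligand of TLR4) or poly(I:C) (a ligand of TLR3), and cells given either ligand together with GW3965, an agonist of LXR, or GW7845, an agonist of PPARγ. No group received an agonist alone. For dose and duration of treatment nothing was given in those sources that were used here, and each group's 2 arrays are biological replicates by the series text, which does not say whether a replicate was 1 mouse or a pool.

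TLR3, and TLR4 through the adaptor TRIF, activate IRF3 and so the production of type I interferon. Secreted interferon then acts on its receptor, and a complex that includes STAT2 and IRF9 binds the interferon-stimulated response element in the promoters of genes such as these. Mx1 and Mx2 are dynamin-like GTPases that block the replication of several viruses. C57BL/6 and many other laboratory strains carry Mx alleles that make no functional protein, and RefSeq lists both genes as transcribed pseudogenes in the C57BL/6J assembly, so the Mx values are of RNA only. The Ifit1 protein binds viral RNA that lacks the cap methylation of host mRNA. Rsad2 encodes viperin, a radical SAM enzyme that makes a chain-terminating nucleotide.

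The response element was looked for in the promoters because it is the feature by which these genes are known to receive the signal. RefSeq promoters (GRCm38.p6, 250 bases before to 50 after a start) were held for 4 of the 6 genes, Ifit1, Ifit2, Ifit3 and Rsad2, and not for Mx1 or Mx2. The core (GAAA, any 2 bases, GAAA) was searched on both strands, with overlapping matches counted, and a longer form, the same followed by C, was searched too. The 3 promoters that held the core are shown from 160 bases before the start up to it, in the direction of transcription. Capitals mark the core, which stood on the opposite strand each time and so reads TTTC, 2 bases, TTTC here.
Ifit1, chr19:34640729-34640888, + strand: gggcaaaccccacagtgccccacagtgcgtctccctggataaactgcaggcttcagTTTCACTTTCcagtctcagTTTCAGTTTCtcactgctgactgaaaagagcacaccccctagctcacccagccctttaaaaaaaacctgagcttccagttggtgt
Ifit3, chr19:34583369-34583528, + strand: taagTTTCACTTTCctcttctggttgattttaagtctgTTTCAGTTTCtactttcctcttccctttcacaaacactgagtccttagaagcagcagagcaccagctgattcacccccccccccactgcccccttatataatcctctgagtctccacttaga
Rsad2, chr12:26456453-26456612, - strand: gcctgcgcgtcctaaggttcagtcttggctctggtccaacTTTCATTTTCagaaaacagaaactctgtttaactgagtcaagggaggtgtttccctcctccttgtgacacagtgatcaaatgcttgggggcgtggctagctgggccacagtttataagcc
Ifit1 and Ifit3 each held 2 matches, and the same 2 forms of the core, TTTCACTTTC and TTTCAGTTTC, occurred in both in the same order. In Ifit1 they began 104 and 85 bases before the start, and in Ifit3 they began 156 and 122 bases before it. Rsad2 held 1 match, 120 bases before the start, which lacked the last base of the longer form. Ifit2 has 2 annotated starts, and neither window held the core. Of the 32851 promoters searched, 3.44% held the core and 0.819% the longer form. Of the 38 other measured interferon-stimulated effector genes with a promoter, 13 held the core, against 1 of 17 NF-κB response genes and 0 of 11 LXR targets.

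All values below are log2 of an intensity that the authors had scaled so that the median probe of each array is 1, which makes 0 the level of the median probe. The arrays fell into 2 sets of 7, named A and B here, that shared their missing probes: 29 probes had no value throughout set A yet were complete in set B, and 30 the other way round. Each group had 1 array in each set, and pairs of values are given with the set A array first. What the sets stand for is not given in the sources used here. Tests came from limma across all 9584 probes, first without the sets and then with the set as a block, which is called the array-set fit. The threshold for a call was an adjusted p (Benjamini-Hochberg) under 0.05. The macrophage markers Lyz2, Cd14 and Msr1 were bright, with median percentiles of 99.97, 99.5 and 97.9 among the probes of an array, while Fcgr1 was at 20.3. Fewer cells that express a gene and less RNA of it per cell cannot be told apart in these bulk samples.

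Both ligands raised all 6 genes. Apart from Ifit2, whose untreated level was too dim for a fold, they rose by 126-fold to 228-fold with LPS and by 212-fold to 274-fold with poly(I:C). Without treatment, Mx1 (percentiles 31.8 and 40.2), Mx2 (44.8 and 41.3) and Rsad2 (28.2 and 48.3) were also below the median probe. Their folds are therefore approximate. The 2 Mx genes were near or below the median probe without treatment. Mx1 read -1.58 and -1.25 in untreated cells, 5.90 and 6.17 with LPS, and 6.66 and 6.72 with poly(I:C). Mx2 read -0.49 and -1.05 untreated, 6.00 and 6.42 with LPS, and 6.94 and 7.01 with poly(I:C). For both genes every array with a ligand stood far above both untreated ones. Mx1 rose by 7.45 (standard error, SE, 0.33; adjusted p = 1.4e-08) with LPS and by 8.10 (SE 0.33; adjusted p = 4.8e-09) with poly(I:C). Among all 9584 probes, ranked by p, Mx1 was in place 2 for LPS and in place 1 for poly(I:C). Mx2 rose by 6.98 (SE 0.34) with LPS and by 7.74 (SE 0.34) with poly(I:C).

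Ifit1 read 0.28 and 0.28 in untreated cells, 7.28 and 7.69 with LPS, and 7.93 and 8.45 with poly(I:C). Ifit3 read 0.01 and 0.20 untreated, 7.60 and 8.09 with LPS, and 7.73 and 8.16 with poly(I:C). Ifit2 read -2.63 and -3.50 untreated, 4.43 and 5.93 with LPS, and 4.83 and 5.95 with poly(I:C). In untreated cells Ifit2 was among the dim probes of its arrays, at percentiles 13.6 and 19.7, under the 20th percentile of the filter on both. Its differences of 8.24 (SE 0.63) with LPS and 8.45 (SE 0.63) with poly(I:C) rest on those dim readings. Set against the 20th percentile of the untreated arrays in place of those readings, Ifit2 was 266-fold higher with LPS and 306-fold higher with poly(I:C). This bound concerns the untreated level only. It was taken on means of 2 arrays and leaves out their spread. No order among the 6 genes is read from it. Ifit1 rose by 7.21 (SE 0.45) and 7.91 (SE 0.45), and Ifit3 by 7.74 (SE 0.45) and 7.84 (SE 0.45).

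Rsad2 read -1.82 and -0.15 in untreated cells, 5.94 and 7.76 with LPS, and 5.58 and 7.91 with poly(I:C). Its set B array was the higher one in all 7 groups, by 2.06 on average and by 1.53 to 3.37, while only 0.0105% of probes had a larger mean difference in that direction and the median probe was 0.49 lower in set B. The mean set difference was 0.64 for Ifit2 and -0.06 to 0.09 for the other 4 genes. Rsad2 rose by 7.83 (SE 1.12; adjusted p = 0.00042) with LPS and by 7.73 (SE 1.12; adjusted p = 0.0004) with poly(I:C). Its SE was 0.36 in the array-set fit, and the adjusted p-values were 2.3e-09 and 2.2e-09.

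**Figure D1:**
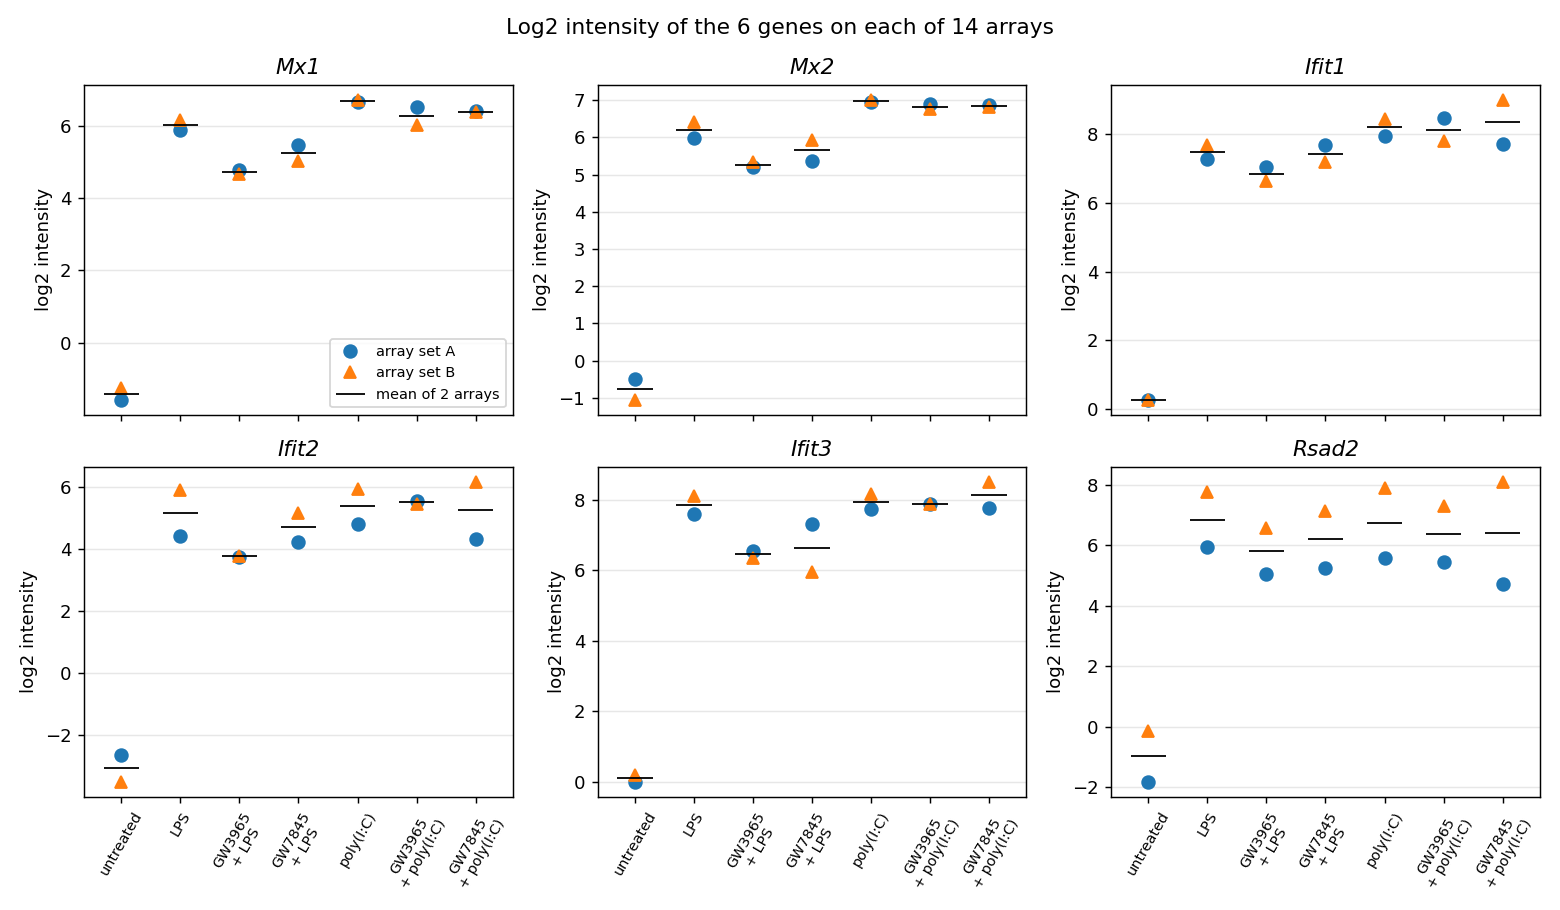
Log2 intensity (0 is the median probe of the array) of the 6 genes in the 7 groups, with set A arrays as circles, set B arrays as triangles and the mean of the 2 arrays as a line. All stimulated arrays lie above the untreated ones for every gene, and the Rsad2 triangle lies above the circle in all 7 groups.

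In both comparisons 6 of 6 genes were called higher, against 5.21% of all probes with LPS and 6.08% with poly(I:C). The median rise, the same with Ifit2 at its bound, was 7.59 with LPS and 7.88 with poly(I:C), beside 0.06 and 0.10 over all tested probes. The same 6 were called higher than in untreated cells when GW3965 or GW7845 had been given with LPS, against 4.09% and 4.34% of probes, and when given with poly(I:C), against 4.59% and 5.15%. The medians over the 6 were 6.46 and 6.90 with LPS, and 7.73 and 7.92 with poly(I:C). These 6 comparisons share the untreated arrays. In all of them the call of Ifit2 was favoured by the filter, which it passed only through arrays of stimulated cells. Its call therefore adds no support to those of the other genes.

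Poly(I:C) and LPS were not separated by any of the 6 genes after adjustment. The estimates of 3 genes were above 0 with no overlap of arrays, Mx1 at 0.65 (95% interval -0.06 to 1.36), Mx2 at 0.76 (SE 0.34) and Ifit1 at 0.71 (-0.26 to 1.67), against 8.78% of probes that were higher without overlap. Ifit2 (0.21), Ifit3 (0.10, and -0.034 after quantile normalization) and Rsad2 (-0.10) had overlapping arrays. Limma called 0 of the 6, and 1 at an unadjusted p under 0.05, Mx2, where 0.543% of probes passed that mark. The array-set fit also called 0 of the 6 (0.0209% of probes), with 2 at an unadjusted p under 0.05, Mx1 and Mx2, against 3.14%. Across all probes limma called 1 (0.0104%), and it was Ifna7, an interferon alpha gene. Ifna7 read -0.42 and -0.78 untreated, -0.98 and -0.71 with LPS, and 4.67 and 3.42 with poly(I:C). It stood 4.88 (SE 0.44; adjusted p = 0.00033) higher with poly(I:C) than with LPS.

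With GW3965 and LPS all 6 genes had estimates below those with LPS alone, at 37.6% to 64.3% of its level. None was called without the array sets, and Mx1 was called with them. Mx1 read 4.78 and 4.67 with GW3965 and LPS, and Mx2 read 5.19 and 5.33. Both arrays of each lay below both arrays with LPS alone. Mx1 differed by -1.31 (SE 0.33; interval -2.02 to -0.60), which is 40.4% of the level with LPS. Its adjusted p was 0.474 without the sets and 0.047 in the array-set fit. Mx2 differed by -0.95 (SE 0.34; interval -1.69 to -0.21; array-set adjusted p = 0.239). The Mx1 call was lost with any of the 4 arrays of the comparison left out (array-set adjusted p = 0.0913 to 0.321) and after quantile normalization with the array-set block (-1.10; adjusted p = 0.17).

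Ifit1 read 7.05 and 6.64 with GW3965 and LPS, Ifit2 read 3.75 and 3.79, and Ifit3 read 6.55 and 6.35. All 3 lay below both arrays with LPS alone. The differences were -0.64 (SE 0.45) for Ifit1, -1.41 (SE 0.63) for Ifit2 and -1.39 (SE 0.45) for Ifit3. Those of Ifit1 and Ifit2 were uneven between the sets, at -0.23 in set A and -1.04 in set B for Ifit1, and at -0.68 and -2.14 for Ifit2. Ifit1 was at -0.37 after quantile normalization and between -0.93 and -0.35 in the array-set fit with 1 array left out. Rsad2 read 5.05 and 6.58, which overlaps the arrays with LPS alone, yet within the sets it was lower by similar amounts, -0.89 in A and -1.18 in B. Its difference of -1.04 had an interval of -3.45 to 1.38 without the sets and of -1.81 to -0.26 with them.

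Limma without the sets thus called 0 of the 6 genes for GW3965 under LPS, against 0.0104% of probes called lower, and the array-set fit called 1, against 0.313%. At an unadjusted p under 0.05 there were 4 genes (Mx1, Mx2, Ifit2 and Ifit3), against 3.11% of probes, and 5 in the array-set fit (those and Rsad2), against 9.76%. Of the 6, 5 were lower without overlap of arrays, where 12.3% of probes were, and 6 of 6 were lower in both sets, where 24.3% were. The median over the 6 was -1.17, beside 0.03 over all probes. Under quantile normalization all 6 stayed below 0, with a median of -0.95.

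GW7845 with LPS gave smaller and less even differences, and none was called. Mx1 read 5.46 and 5.02, Mx2 read 5.36 and 5.94, and Ifit3 read 7.31 and 5.94, all below both arrays with LPS alone. The differences were -0.80 (SE 0.33) for Mx1, -0.56 (SE 0.34) for Mx2 and -1.22 (SE 0.45) for Ifit3, where 11.1% of probes were lower without overlap. That of Ifit3 was -0.29 in set A and -2.15 in set B. Ifit1 read 7.67 and 7.18, Ifit2 read 4.24 and 5.17, and Rsad2 read 5.26 and 7.14. These 3 overlapped the arrays with LPS alone, at -0.06 (0.24 after quantile normalization), -0.47 and -0.65. Limma and the array-set fit each called 0 of the 6 and 0 of all probes (0%). Both gave 2 genes, Mx1 and Ifit3, at an unadjusted p under 0.05, against 1.44% and 5.94% of probes. The median over the 6 was -0.60, beside -0.04 over all probes.

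Under poly(I:C) the agonist differences of the 6 genes lay between -0.41 and 0.19. With GW3965, Mx1 read 6.53 and 6.02 and Mx2 read 6.89 and 6.75, below both arrays with poly(I:C) alone, as 12% of probes were. Ifit1 read 8.46 and 7.79, Ifit2 read 5.57 and 5.47, Ifit3 read 7.88 and 7.87, and Rsad2 read 5.45 and 7.29, all with overlap. The estimate was largest for Mx1 at -0.41 (interval -1.12 to 0.30), followed by Rsad2 at -0.37 and Mx2 at -0.15, while Ifit1 was at -0.06, Ifit3 at -0.07 and Ifit2 at 0.13. After quantile normalization Mx2, Ifit1 and Ifit3 turned positive, at 0.17, 0.26 and 0.23. A level as low as 46.0% and as high as 123% of poly(I:C) alone lies within the interval for Mx1.

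With GW7845 and poly(I:C), Mx1 read 6.42 and 6.37 and Mx2 read 6.86 and 6.80, again below both arrays with poly(I:C) alone, as 6.78% of probes were. Ifit1 read 7.71 and 8.99, Ifit2 read 4.33 and 6.18, Ifit3 read 7.76 and 8.50, and Rsad2 read 4.73 and 8.11, all with overlap and with the set B array the higher one. The differences were -0.29 for Mx1, -0.14 for Mx2, 0.16 for Ifit1, -0.13 for Ifit2, 0.19 for Ifit3 and -0.32 for Rsad2. For either agonist under poly(I:C), limma and the array-set fit each called 0 of the 6, and 0 at an unadjusted p under 0.05. Over all probes limma called 0.0104% for GW3965 and 0% for GW7845, and the array-set fit 0.073% and 0%. At an unadjusted p under 0.05 there were 1.49% and 0.866% of probes by limma, and 6.2% and 3.78% in the array-set fit. The medians over the 6 were -0.11 and -0.14, beside -0.10 and 0.03 over all probes.

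**Figure D2:**
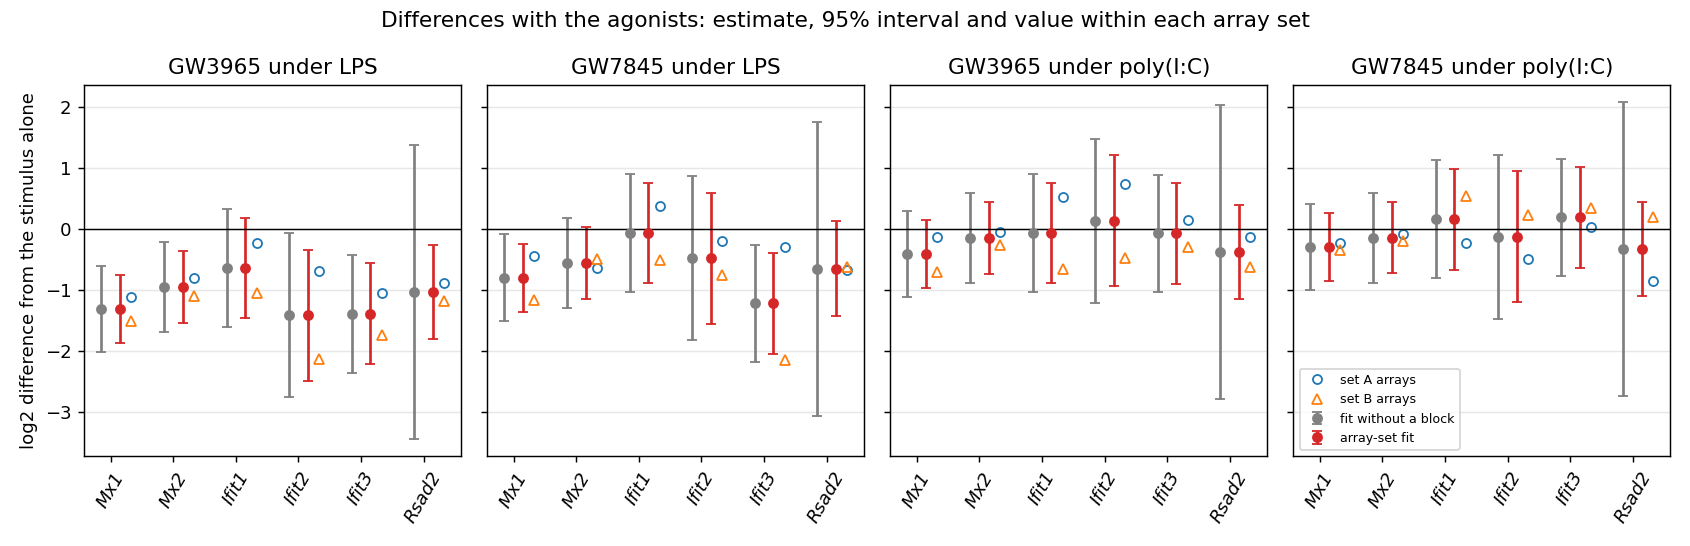
Log2 difference between agonist with stimulus and stimulus alone for the 6 genes, as the estimate with its 95% interval from limma without a block (grey) and with the array set as a block (red), and as the value within set A (open circles) and set B (open triangles). Under GW3965 and LPS all 6 estimates lie below 0 in both sets, from -0.64 to -1.41, and under poly(I:C) the estimates lie between -0.41 and 0.19.

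Whether the agonist difference itself depended on the ligand was tested as an interaction. For GW3965 the difference under poly(I:C) minus that under LPS was 0.90 (interval -0.11 to 1.90) for Mx1, 0.80 for Mx2, 0.57 for Ifit1, 1.54 for Ifit2, 1.32 for Ifit3 and 0.66 for Rsad2. All 6 were above 0 in both array sets, where 19.2% of probes were. Limma called 0 of the 6 and 0% of all probes, with 0 of the 6 at an unadjusted p under 0.05 (0.303% of probes). The array-set fit also called 0, with 3 at an unadjusted p under 0.05, Mx1, Ifit2 and Ifit3, against 2.86%. So a difference in GW3965 response between the ligands was not shown for any of the 6 genes. For GW7845 the interaction was 0.22 (Ifit1, -0.089 after quantile normalization) to 1.41 (Ifit3), with 0 called by either fit and 1, Ifit3, at an unadjusted p under 0.05 in each, against 0.48% and 2.93% of probes.

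Taken over both ligands, GW3965 gave -0.86 (SE 0.23; 55.1% of the level without it) for Mx1, with an adjusted p of 0.381 without the sets and 0.041 in the array-set fit. The array-set call was lost without any 1 of those 8 arrays (adjusted p = 0.0568 to 0.183) and after quantile normalization with the array-set block (adjusted p = 0.237). The other 5 genes lay between -0.73 (Ifit3) and -0.35 (Ifit1), and neither fit called them. The array-set fit called 0.814% of all probes lower in this comparison, and limma without the sets 0.0835%. GW7845 over both ligands gave -0.54 (SE 0.23) for Mx1, with an adjusted p of 0.627 in the array-set fit, and 0.05 to -0.51 for the rest, with 0 of the 6 called by either fit, against 0% of probes by limma and 0.0104% in the array-set fit.

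GW7845 and GW3965 were also set against each other. Under LPS the 6 genes were 0.17 (Ifit3) to 0.94 (Ifit2) higher with GW7845 than with GW3965, and 4 of them, Mx1, Mx2, Ifit1 and Ifit2, did not overlap, where 10.3% of probes were higher without overlap. Neither fit called any of the 6 or gave one at an unadjusted p under 0.05, where limma called 0.0104% of all probes and the array-set fit 0.0626%, with 1.62% and 5.94% at an unadjusted p under 0.05. For Mx1 the interval of the difference was -0.20 to 1.22. Under poly(I:C) the differences lay between -0.26 and 0.26 with all 6 overlapping and none called by limma (0.0417% of probes) or in the array-set fit (0.104%), and those of Mx1, Mx2, Ifit1 and Rsad2 turned from positive to negative after quantile normalization.

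By group means, untreated cells were lowest for all 6 genes, followed by GW3965 with LPS and then GW7845 with LPS. The order above these differed. LPS alone was below the 3 poly(I:C) groups for every gene but Rsad2, where it was highest (6.85, beside 6.74 with poly(I:C) alone). Highest were poly(I:C) alone for Mx1 and Mx2, GW7845 with poly(I:C) for Ifit1 and Ifit3, and GW3965 with poly(I:C) for Ifit2. For Mx1 and for Mx2 the 3 LPS groups were ordered GW3965, GW7845, LPS alone with no overlap between neighbours, although limma called no neighbouring pair. In Mx1 the poly(I:C) groups followed, of which GW3965 overlapped LPS alone. In Mx2 all 6 poly(I:C) arrays stood above all LPS arrays. For Ifit1 the GW3965 and LPS arrays stood alone, GW7845 with LPS overlapped LPS alone, and the 3 poly(I:C) groups overlapped each other. For Ifit2 only GW3965 with LPS was apart from the other stimulated groups, and for Ifit3 the GW3965 and GW7845 groups with LPS overlapped each other and lay below the rest. For Rsad2 all 6 stimulated groups overlapped.

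How far the 6 genes varied together among the 12 stimulated arrays depended on the array sets. With the values centred within each set, Pearson's r over those arrays ran from 0.46 (Mx2 with Rsad2) to 0.95 (Mx1 with Mx2), and over all 14 arrays every pair was at 0.98 or 0.99. Without centring, r over the 12 arrays ran from 0.16 to 0.93, and Rsad2 was at 0.16 with Mx1, 0.28 with Ifit3, 0.30 with Mx2 and 0.34 with Ifit1. These arrays share their preparation and scaling, and the untreated pair sets the values over 14. The probes most like the mean of the 6 over all 14 arrays were those of Mug1 (r = 1.00), a protease inhibitor gene of the macroglobulin family, and of Tgtp1, Iigp1, Ifih1 and Igtp (r = 0.99 each). Tgtp1, Iigp1 and Igtp are interferon-induced GTPases, and Ifih1 encodes the RNA sensor MDA5. Over the 12 stimulated arrays they were Samhd1 (0.97), an enzyme that degrades deoxynucleotides, Ifi47 and Irgm1 (0.95 each), again interferon-induced GTPases, and Nacc2 and Stx11 (0.94 each). These names depended on the processing. After quantile normalization Tgtp1, Ifih1 and Igtp were still among the 5 most like over 14 arrays, and Samhd1 and Stx11 over the 12. Without centring by set, 4 of the 5 over 14 arrays stayed (not Ifih1) and 0 of the 5 over the 12, where Trim21 came first (0.95).

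The pathway that leads to these genes was described from lists of its parts. Of the type I ligands only Ifna7 was measured here, and Ifnb1, Jak1 and Ticam1 were not analysed here. Of 14 sensors and adaptors, 8 rose with LPS and 9 with poly(I:C), and 0 fell. Tlr3, the poly(I:C) receptor, rose by 3.26 and 3.62, Ifih1 by 5.35 and 5.45, and Myd88, the adaptor of most Toll-like receptors, by 1.98 and 2.54. Tlr4 itself differed by -0.49 and -0.40 and was not called. Of 15 genes for interferon receptors and signalling, 5 rose with each ligand, and they were Irf1, Irf7, Irf9, Jak2 and Stat2. Irf7, which amplifies interferon production, rose by 3.78 and 4.04, and Stat2 and Irf9, of the complex that binds the response element, rose by 3.14 and 3.46 and by 1.63 and 1.93. Ifnar1, Ifnar2, Tyk2 and Irf3 were not called with either ligand, at 0.27 and 0.57 for Ifnar1, 1.84 and 1.51 for Ifnar2, 0.56 and 0.83 for Tyk2, and 0.05 and -0.13 for Irf3. Among 11 feedback genes 5 rose with LPS and 6 with poly(I:C), Socs1 and Socs3, inhibitors of cytokine signalling, among them.

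With GW3965 and LPS, limma called 0 of the 14 sensors and adaptors, 0 of the 15 receptor and signalling genes and 0 of the 11 feedback genes, and the array-set fit also called 0; at an unadjusted p under 0.05 limma had 2 sensors, Tlr3 and Ifih1, and 0 of the other lists. At the level of single genes, Stat2 was at -0.18, Irf9 at 0.17 and Irf7 at -0.56, with Irf7 reading 8.92 and 8.68 against 9.48 and 9.25 with LPS alone. Tlr3 was at -1.60 (SE 0.43), with an adjusted p of 0.0774 in the array-set fit. The medians were -0.44 for sensors and adaptors, -0.01 for receptors and signalling and -0.51 for feedback genes, beside -1.17 for the 6 genes and 0.03 for all probes. Under poly(I:C), Ifna7 read 3.22 and 2.72 with GW3965 and 3.50 and 3.27 with GW7845, against 4.67 and 3.42 with poly(I:C) alone. Both GW3965 arrays were lower without overlap, as 12% of probes were, and limma called 0 probes lower in that comparison. At an unadjusted p under 0.05 limma had 1 of the 2 interferon genes listed (Ifna7 and Ifng) there, against 1.49% of probes.

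Of 49 other interferon-stimulated effectors, 42 rose with LPS and 45 with poly(I:C), by medians of 3.73 and 4.03, and 0 fell. With GW3965 and LPS, 46 of the 49 had estimates below 0, with a median of -0.77. Limma called 1 of them lower, Slfn4 (-2.50, SE 0.37, adjusted p = 0.0285), a schlafen gene of myeloid cells, against 0.0104% of all probes. The array-set fit called 6, Slfn4, Isg20, Gbp4, Cxcl11, Cxcl10 and Siglec1, against 0.407% of probes called in either direction. At an unadjusted p under 0.05 limma had 17 of the 49, against 3.11% of probes. Cxcl10 and Cxcl11, chemokines that attract activated T cells, were at -2.64 and -2.59, and Isg20, an RNA exonuclease, was at -2.39. Their medians with GW7845 and LPS, GW3965 and poly(I:C), and GW7845 and poly(I:C) were -0.36, -0.25 and -0.08, with 0 called by either fit. Of 20 NF-κB response genes, 18 rose with each ligand, and with GW3965 and LPS limma and the array-set fit called 0 (1 at an unadjusted p under 0.05 by limma), with a median of -0.13.

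The agonists' own targets showed how far each agonist could be followed. Of 17 LXR targets 2 rose with GW3965 under LPS, Eepd1 (2.64) and Cd5l (2.44), against 0.0209% of all probes called higher. Under poly(I:C) 1 rose, Eepd1 (2.57), against 0.0104%, and over both ligands 7 rose, against 0.115%. Among the known targets Abcg1, a cholesterol exporter, was at 2.28 and 2.40 under LPS and poly(I:C) and was called in the array-set fit (adjusted p = 0.007 and 0.0141). Of 14 PPARγ targets limma and the array-set fit called 0 with GW7845 under either ligand, and Fabp4, the lipid carrier often used as a marker of PPARγ activity, was at -0.28 under LPS and at 0.81 under poly(I:C). Fabp4 read 7.25 and 6.60 with GW7845 and poly(I:C), and 6.29 and 5.94 with poly(I:C) alone. At an unadjusted p under 0.05 limma had 3 of these 14 under LPS, against 1.44% of all probes. Under poly(I:C) it had 0, against 0.866%, and over both ligands 5 of the 14. These counts take rises and falls together, so they give no direction. So the list holds no call that follows GW7845 under either ligand, which does not exclude a response short of a call.

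**Figure D3:**
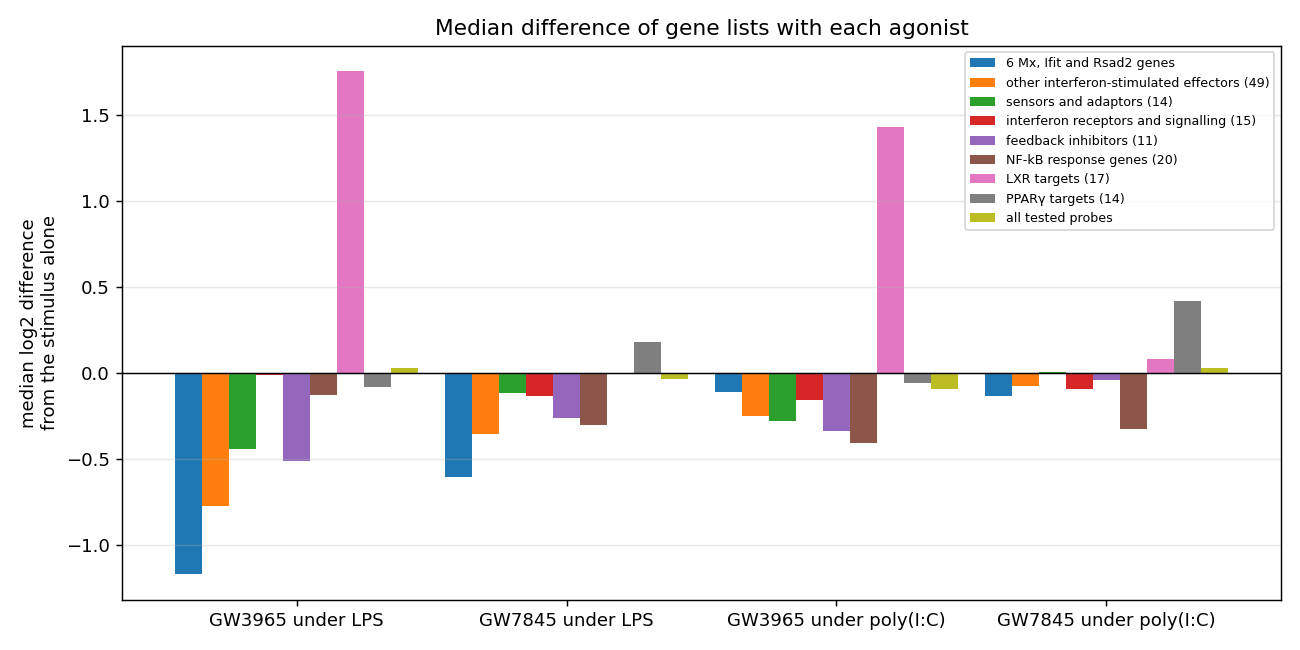
Median log2 difference from the stimulus alone with each agonist, for the 6 genes, for 7 gene lists (number of tested genes in brackets) and for all tested probes. Under GW3965 and LPS the 6 genes have a median of -1.17 and the other interferon-stimulated effectors -0.77, while the LXR targets have 1.76 and all probes 0.03.

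Summed marker lists of other cells moved between some of the same groups. A linear sum rests mostly on its brightest genes, so 1 gene can move it. By median percentile the brightest were S100a8 (90.6) for neutrophils, and Blnk (89.8) and Ighm (82.8) for B cells. For plasmacytoid dendritic cells it was Tcf4 (87.6), and for macrophages Lyz2 (99.97). The summed linear level of 6 neutrophil markers was 31.6 to 47.0 with LPS and 18.0 to 20.5 with GW3965 and LPS. That of 10 B cell markers was 61.5 to 67.1 and 49.3 to 56.8, and that of 3 genes listed for plasmacytoid dendritic cells, Tcf4, Tlr9 and Irf8, was 32.4 to 37.1 and 19.2 to 28.2. Untreated cells had lower sums than LPS for these lists, at 16.6 to 28.8, 42.3 to 42.4 and 11.7 to 15.3. Irf8 was also on the list of interferon receptors and signalling. Whether these levels stand for other cells or for RNA of the macrophages was not tested. With GW7845 and LPS the sums were 32.2 to 39.6, 50.0 to 54.0 and 16.8 to 21.8. The macrophage markers summed to 1770 to 2736 with LPS, to 1599 to 1922 with GW3965 and LPS and to 1570 to 1692 with GW7845 and LPS. T and NK cell markers were at 29.2 to 37.7, 22.3 to 32.3 and 25.4 to 28.0 in those groups. So GW3965 with LPS lay below LPS alone without overlap for the neutrophil, B cell and plasmacytoid lists, and GW7845 with LPS did for the macrophage, B cell, T and NK cell and plasmacytoid lists. Under poly(I:C), where the 6 genes had a median of -0.11 with GW3965, the sums with poly(I:C) alone and with GW3965 added were 24.0 to 51.0 and 16.5 to 16.9 for neutrophils, 42.5 to 47.5 and 37.2 to 40.1 for B cells, and 35.4 to 57.4 and 31.3 to 34.4 for the plasmacytoid list. The conventional dendritic cell list went from 20.2 to 35.8 with poly(I:C) alone to 14.7 to 18.1 with GW3965, and both GW7845 arrays were at 18.0 or lower. All other lists overlapped in these 4 agonist comparisons. Limma and the array-set fit called 0 markers of any list in them, and at an unadjusted p under 0.05 limma had at most 2 of a list. The neutrophil genes Mpo, which was too dim to be tested, Elane and Ltf were at the floor on 4, 3 and 1 of the 14 arrays, and the other measured markers of the neutrophil, B cell and plasmacytoid lists were above it on all. The part of these shifts in the results for the 6 genes was not tested.

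The genes lie in 3 places of the genome, and neighbours there were looked at after the values of the 6 had been seen. In the RefSeq gene order (GRCm38.p6) Mx1 and Mx2 stand on chromosome 16 with Fam3b, a cytokine-like gene, between them. Fam3b rose with both ligands, by 3.85 and 4.10 (SE 0.62; adjusted p = 0.0011 and 0.00057), and was at -2.43 with GW3965 and LPS (adjusted p = 0.474, and 0.0285 in the array-set fit). On the outer sides, Bace2 and Tmprss2 were not called with either ligand.

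Rsad2 stands on chromosome 12 beside Cmpk2, a nucleotide kinase that supplies the substrate of viperin. Cmpk2 rose by 7.12 and 7.59 (SE 0.60) and was at -1.51 with GW3965 and LPS, and Rnf144a on the other side of Rsad2 was at -0.04 and -0.78 with the ligands. The Ifit genes lie together on chromosome 19, in the order Ifit2, Ifit3, Ifit1bl1, Ifit3b, Ifit1bl2, Ifit1. Next to Ifit2 stands Lipa, a lysosomal lipase (-0.82 with LPS and -0.60 with poly(I:C), neither called), and beyond it Ch25h, which makes a hydroxylated cholesterol, an oxysterol of the kind that LXR binds. Ch25h rose by 6.63 and 7.41 (SE 0.68), and was at -3.46 with GW3965 and LPS (adjusted p = 0.147, and 0.0394 in the array-set fit) and at -2.93 with GW3965 and poly(I:C) (adjusted p = 0.208 with the sets). Fas, a death receptor gene on the far side of Ch25h, also rose, by 2.46 and 2.52 (SE 0.39), and was at -0.22 with GW3965 and LPS, where 47.7% of all probes had estimates below 0.

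**Figure D4:**
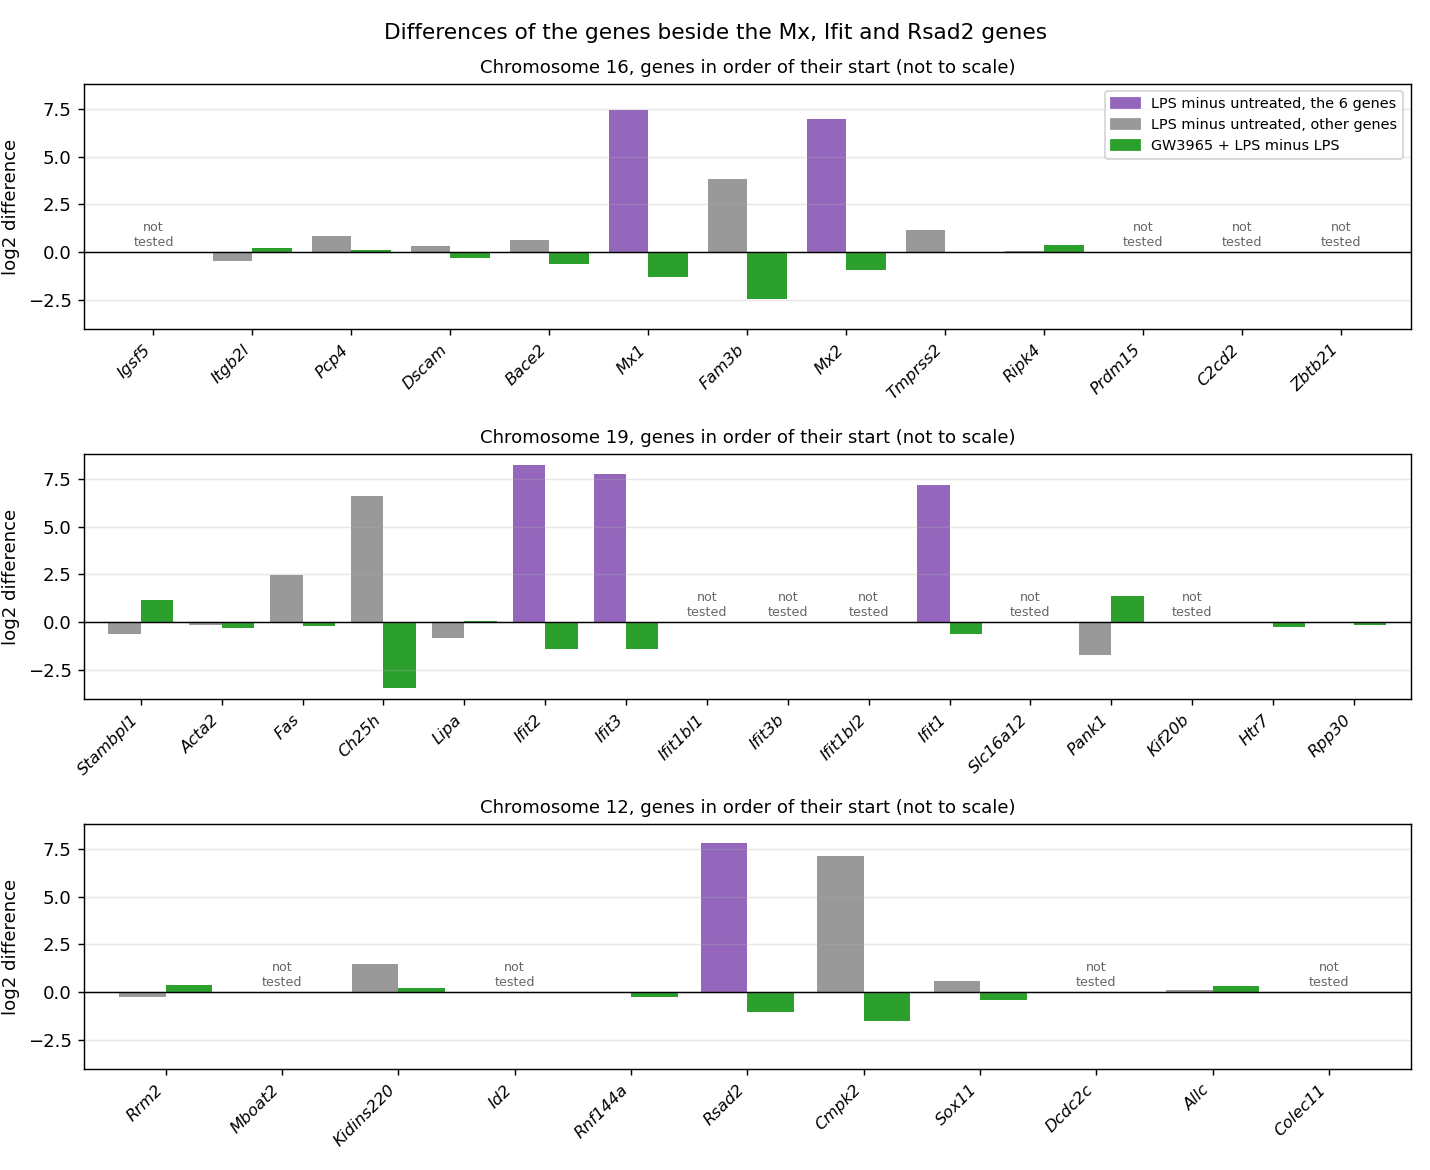
Log2 difference of LPS minus untreated (purple for the 6 genes, grey for the rest) and of GW3965 with LPS minus LPS (green) for the genes beside Mx1, Mx2, the Ifit genes and Rsad2, in gene order and not to scale. Fam3b (3.85), Cmpk2 (7.12), Ch25h (6.63) and Fas (2.46) rose near them, while Lipa, between Ch25h and Ifit2, was at -0.82.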

How the data were processed

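RNA of 14 samples was measured on one-colour arrays with biotin-labelled cRNA, per the labels. The deposited values are linear intensities that the authors had scaled to a median of 1 on each array, by a method not given in the sources used here. Values under the 5th percentile of positive intensities (0.0686, or -3.87 on the log2 scale) were set to it before log2 was taken. Probes above their array's 20th percentile on at least 2 of 14 arrays were kept (9584 of 10012). Group means of all 14 arrays were fitted in limma 3.58.1 (R 4.3.3; 7 residual degrees of freedom, intensity trend, two-sided), and again with the array set as a block (6 degrees of freedom). Adjusted p-values are Benjamini-Hochberg over 9584 probes, and intervals cover 95%. With 2 arrays in a group their number limits the precision, and p-values measure the spread between these preparations. In the fit without a block that spread includes the difference between the array sets. Of the probes 8983 had 1 gene symbol, 1 several and 1028 none. The members, lists and tests were chosen with earlier results of these data known. All 6 genes were named in every comparison. The 5 most alike were named too. Up to 5 genes of a list by smallest p and the carriers of the interferon signal were named in some comparisons only. Alternatives were the floor, the filter, quantile normalization, the trend, blocks, the samples fitted and each array left out. Arrays of the same set deviated together from their group means (r = 0.354 to 0.674 over 42 pairs, all above 0.1). Those with the same replicate number did so in 30 of 42 pairs (r = -0.54 to 0.674), so the replicate numbers were not used to pair arrays. With 2 arrays in a group the deviations mirror each other, so each r is counted once per set. The replicate numbers give the same values, with the sign changed for pairs with GW7845 and LPS. The fits were tested on simulated data with independent noise and no difference between array sets. That run cannot show how either fit performs where such a difference exists.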

Additional observations from a re-analysis of the deposited data

Results flagged for a closer look

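The difference of Ifit3 with GW7845 had opposite signs under the 2 ligands on the arrays of both sets, lower under LPS (-0.29 and -2.15) and higher under poly(I:C) (0.04 and 0.34). The interaction was 1.41, with an adjusted p of 1.0 by limma and in the array-set fit, so a difference between the ligands was not shown.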

How the results depend on the processing

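In each of the 6 comparisons with untreated cells all 6 genes were called higher under every alternative run. Of the other comparisons, only GW3965 under LPS and GW3965 over both ligands changed their count, from 0 to 1 gene (Mx1) with the array-set block, and with quantile normalization added, chosen after seeing the data, the count was 0 again. With the replicate number as a block (replicate block) Mx1 had an adjusted p of 0.216 for GW3965 under LPS, and the count there was 0; replicate 1 is the set A array in 6 of the 7 groups, so this number partly follows the array set.

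Quantile normalization, with and without the array-set block, reversed the sign of 10 uncalled differences: Ifit3 for poly(I:C) against LPS (-0.034), Ifit1 for GW7845 under LPS (0.24), Mx2, Ifit1 and Ifit3 for GW3965 under poly(I:C) (0.17, 0.26 and 0.23), Mx1, Mx2, Ifit1 and Rsad2 for GW7845 against GW3965 under poly(I:C) (-0.13, -0.31, -0.11 and -0.12), and Ifit1 for the GW7845 interaction (-0.089). It shifted the probes by a median of -0.11 for LPS, -0.15 for poly(I:C), -0.13 for GW7845 against GW3965 under poly(I:C) and -0.18 for GW7845 with poly(I:C), each of the others by under 0.1. The cause was not tested.

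Leaving out 1 array at a time, with or without the array-set block, reversed the sign of 29 uncalled differences. For poly(I:C) against LPS the ranges were Ifit2 -0.55 to 0.96, Ifit3 -0.16 to 0.36 and Rsad2 -1.27 to 1.06. For GW7845 over both ligands the ranges were Ifit1 -0.30 to 0.39, Ifit2 -0.76 to 0.16 and Rsad2 -1.33 to 0.36. For GW7845 under LPS the ranges were Ifit1 -0.40 to 0.28, Ifit2 -1.23 to 0.28 and Rsad2 -1.59 to 0.29. For the GW3965 interaction the range was Rsad2 -0.50 to 1.83. For the GW7845 interaction the ranges were Ifit2 -0.58 to 1.27, Rsad2 -1.36 to 2.01 and Ifit1 -0.47 to 0.91. For GW7845 against GW3965 under LPS the ranges were Rsad2 -0.55 to 1.33 and Ifit3 -0.65 to 0.99. For GW3965 under poly(I:C) the ranges were Ifit2 -0.43 to 0.69, Ifit1 -0.50 to 0.38, Ifit3 -0.30 to 0.16 and Rsad2 -1.54 to 0.79. For GW7845 under poly(I:C) the ranges were Ifit1 -0.53 to 0.85, Ifit3 -0.22 to 0.60, Ifit2 -1.05 to 0.79 and Rsad2 -2.01 to 1.36. For GW7845 against GW3965 under poly(I:C) the ranges were Rsad2 -1.64 to 1.74, Ifit2 -1.18 to 0.66, Mx1 -0.14 to 0.38, Mx2 -0.11 to 0.13, Ifit1 -0.47 to 0.92 and Ifit3 -0.15 to 0.67.

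With 2 arrays a group, values that moved this far cannot be given a direction. No detection calls were used, so signal over background rests on the level alone.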
